A study of Mus musculus with 15 samples.

Results

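The D cyclins Ccnd1, Ccnd2 and Ccnd3, the kinases Cdk4 and Cdk6, the Cip/Kip inhibitors Cdkn1a and Cdkn1b and the INK4 inhibitors Cdkn2a, Cdkn2c and Cdkn2d were examined for cohesin, CTCF and active chromatin in immature mouse thymocytes. They are 10 of the 22350 protein-coding genes annotated on chromosomes 1 to 19 and X, and they were chosen by name, with no threshold on a measured value. Every peak that touched a gene body or the 100 kb on either side of it was taken, which gave 604 peaks: 106 of 35345 CTCF peaks, 139 of 38430 and 169 of 48462 Rad21 peaks in replicates 1 and 2, and 99 of 38700 and 91 of 24765 H3K27ac peaks in replicates 1 and 2. The cells were primary CD69-CD4+CD8+ thymocytes of wild type C57BL/6 mice, and no age was given for them. ChIP-seq was done for CTCF (1 library), for the cohesin subunit Rad21 (2 libraries) and for H3K27ac, a histone mark of active promoters and enhancers (2 libraries). The series also holds 8 Hi-C samples of wild type, CTCF-/- and CTCF-/-, Rad21-/- cells, the knockouts made with a CD4 Cre, and 2 input samples, and these were not analysed here. All peak lists came from wild type cells, so no condition could be compared and no test between groups was possible. Whether the replicates are from different mice is not labelled, so differences between them may be technical.

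D cyclins bind Cdk4 and Cdk6, and the complexes phosphorylate the retinoblastoma protein and so let E2F factors start S phase. INK4 proteins bind the kinases and block their pairing with D cyclins, whereas the Cip/Kip proteins p21 and p27 bind whole cyclin-kinase complexes and inhibit Cdk2 in particular. In the thymus, Ccnd3 is known as the D cyclin needed for the expansion of cells that have passed beta-selection, after which double-positive cells leave the cycle. Cohesin is a ring complex that extrudes chromatin loops and is halted at CTCF sites, and it is also found at active promoters and enhancers without CTCF.

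The label of the cells was checked against marker genes, counted as marked when a peak lay within 2000 bp of a transcription start site (TSS). H3K27ac of both replicates was found at 10 of 10 markers of double-positive thymocytes, 0 of 6 of myeloid cells, 0 of 5 of thymic epithelium and 2 of 6 of later or other T cells (Ccr7 and Klf2). Markers of other blood lineages were not all free of the mark: Cd79b of B cells and Klf1 of erythroid cells also had it, and their part in the results was not tested. Peak lists hold no read counts, so the depth of the libraries is unknown and a missing peak means only that none was called. In the windows, 82.7% of the Rad21 peaks of replicate 1 and 65.7% of those of replicate 2 overlapped a peak of the other replicate, close to 83.0% and 65.1% of all peaks. For H3K27ac the shares were 54.5% and 81.3% in the windows, against 42.0% and 74.8% of all peaks. Merged regions with a peak of both replicates are called shared below, and there were 110 of 30959 shared Rad21 regions and 54 of 16230 shared H3K27ac regions in the windows. The fold enrichment of a peak is the value of the authors' peak caller over local background and describes or ranks peaks within a list.

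The CTCF sites inside the genes come first, because the highest Rad21 peaks within the gene bodies of Ccnd1, Ccnd2, Ccnd3 and Cdkn1a lie on them. Each sequence is read 5′ to 3′ on the strand of the match, from the NCBIM37 assembly (mm9), and the capitals are the 13 bases that match the CTCF core consensus with at most 2 mismatches within 50 bp of the Rad21 replicate 1 summit.
Ccnd1 intron (chr7:152123529-152123551, plus strand): gcacgTCGCTAGGGGGCGcacac
Ccnd1 exon (chr7:152117872-152117894, plus strand): tgagaCCACTAGAGGTCGcactg
Ccnd2 intron (chr6:127097883-127097905, plus strand): gtctgCCACTAGGTGGCAgcaca
Ccnd3 intron (chr17:47648287-47648309, plus strand): ttggtCCACCAGATGGAGctata
Ccnd3 intron, second site (chr17:47653371-47653393, minus strand): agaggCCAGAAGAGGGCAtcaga
Ccnd3 intron near the gene end (chr17:47735155-47735177, plus strand): aatctCCAGCAGAGGGCAccatc
Cdk6 promoter (chr5:3344538-3344560, plus strand): accatCCGCGAGGTGGCGgtgct
Cdk6 intron (chr5:3516931-3516953, minus strand): cagtgACACTAGGGTGCAgcatt
Cdkn1a intron (chr17:29232575-29232597, minus strand): tgatgCCGGTAGGGGGCGctgtg
The Ccnd2 site and the Ccnd3 site near the gene end matched the consensus without a mismatch. The Ccnd1 exon site, the first and second Ccnd3 sites and the Cdkn1a site had 1, and the sites at the Ccnd1 intron and at both Cdk6 positions had 2. The matches of Ccnd1 and Ccnd2 lay on the plus strand of genes that are read from the minus strand.

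At the promoters, taken as 2000 bp on either side of any annotated TSS, the 10 genes differed from one another in all 3 marks. Shared H3K27ac was found at 5 of 10 (Ccnd3, Cdk4, Cdk6, Cdkn1b and Cdkn2c), where 41.5% of all protein-coding genes had it. At Cdk4 and Cdkn2c the replicate 2 peak, taken as a whole, had a deposited q above 0.05. That value need not be the one at which the peak was called. Shared Rad21 was found at 5 of 10 (Ccnd1, Ccnd3, Cdk6, Cdkn1a and Cdkn1b), against 31.5% of all genes, and a CTCF peak at 4 of 10 (Ccnd1, Cdk6, Cdkn1a and Cdkn2a), against 26.4%. In single replicates, H3K27ac was found at the same count of 5 members (44.7% and 43.0% of all genes in replicates 1 and 2), and Rad21 at 5 members in replicate 1 (36.2%) and 8 in replicate 2 (43.6%). With 10 genes, counts of 4 and 5 are near these background shares and are read only as a description of the genes.

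The same marks came in different combinations. Rad21 with CTCF and without H3K27ac marked Ccnd1 and Cdkn1a, a combination held by 5.20% of all genes. H3K27ac and Rad21 without CTCF marked Ccnd3 and Cdkn1b (10.3% of all genes). H3K27ac without shared Rad21 marked Cdk4 and Cdkn2c (16.2%), and all 3 marks were present only at Cdk6 among the 10 genes (15.0%). Cdkn2a had CTCF alone, from a peak with a fold of 3.58 and a −log10 q of 1.15, so its q was above 0.05. The share of all genes with CTCF alone is not given. Ccnd2 and Cdkn2d had none of the 3 marks (49.1%). The plot of promoter heights shows the Ccnd1 and Cdkn1a peaks above those of the other members.

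**Figure D1:**
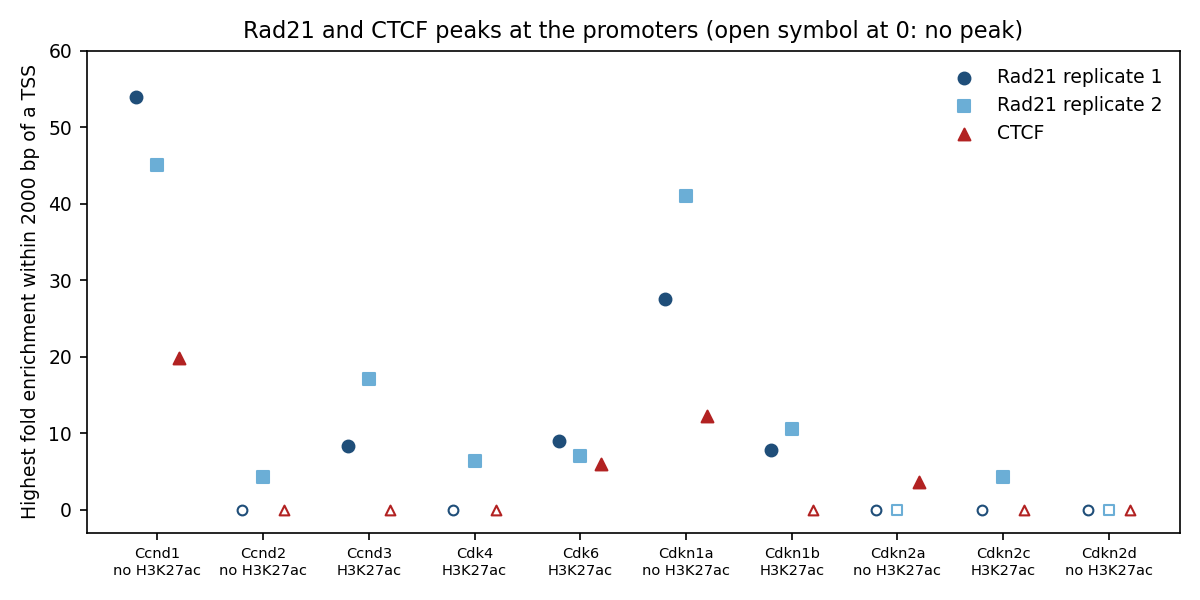
Highest fold enrichment of Rad21 (replicate 1 circles, replicate 2 squares) and CTCF (triangles) peaks within 2000 bp of any TSS of each gene, on a linear axis; open symbols at 0 mark no peak, and the labels give shared H3K27ac. Ccnd1 reaches Rad21 folds of 53.9 and 45.1 and Cdkn1a 27.5 and 41.0, and the other members with a Rad21 peak stay at or below 17.1.

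Ccnd3, which encodes cyclin D3, had the most shared Rad21 regions of the 10 genes. Its gene spans chromosome 17 from 47642000 to 47736632 on the plus strand, and its window held 39 and 46 Rad21 peaks in replicates 1 and 2, 21 CTCF peaks, and 15 and 22 H3K27ac peaks. Of 29 shared Rad21 regions, 15 overlapped a CTCF peak and 14 did not, and all of the 14 lay in shared H3K27ac. As many or more shared Rad21 regions were found around 0.304% of all genes, and as many or more CTCF-free ones around 0.707%. The gene body is long, at 94633 bp, and there are 11 protein-coding genes in the window, but 17 of the 29 regions lay in Ccnd3 itself, 12 of them CTCF-free. Per Mb of window, 98.0% of genes had fewer CTCF-free regions than Ccnd3. By this measure Cdkn1b stood above Ccnd3, with 48.8 against 47.5 CTCF-free regions and 107 against 98.4 shared Rad21 regions per Mb.

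The highest Rad21 region of Ccnd3 was at chr17:47648019-47648798 in an intron, 6409 bp downstream of the first TSS. Its Rad21 folds were 55.2 and 82.2 and its CTCF fold was 29.6, and it was the 146th of all 30959 regions when each is ordered by its worse rank in the replicates. This region holds the first Ccnd3 intron site printed above, and it lay in shared H3K27ac. The promoter region at chr17:47641699-47642210 had no CTCF peak and was lower, with folds of 8.34 and 17.1. The highest CTCF-free region, at chr17:47678992-47679885 and 37439 bp into the gene, had folds of 19.1 and 30.9. It stood at 4810 of 30959. A second TSS, 88416 bp downstream of the first, had 3 shared CTCF-free regions within 2000 bp, with folds of at most 7.98 and 12.3. Near the gene end, a CTCF-bound region at chr17:47734927-47735404 had Rad21 folds of 27.3 and 26.9 and a CTCF fold of 10.0. H3K27ac peaks of replicate 1 covered 77.7% of the gene body and those of replicate 2 44.2%. In shared regions, which take the full extent of the joined peaks, H3K27ac covered 68.9%. Stitched within 12000 bp, these regions formed a cluster of 69526 bp over Ccnd3 and Taf8 that ranked 30 by width among 11823 clusters and held 14 shared Rad21 regions, 10 of them CTCF-free. A second cluster of 20598 bp over the gene end, Bysl and Med20 ranked 698.

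Of 16 CTCF-free regions in the body or promoter of a member, 12 were in Ccnd3 and 3 at Cdkn1b, so 4 of their summits are shown. The sequences are 201 bp of the plus strand centred on the Rad21 replicate 1 summit, in mm9, with TGTGGT (RUNX), CAGCTG (E-box), AGGAAG (ETS) and CTTTGA (TCF/LEF) in capitals on either strand.
Ccnd3 promoter (chr17:47641934-47642134, plus strand): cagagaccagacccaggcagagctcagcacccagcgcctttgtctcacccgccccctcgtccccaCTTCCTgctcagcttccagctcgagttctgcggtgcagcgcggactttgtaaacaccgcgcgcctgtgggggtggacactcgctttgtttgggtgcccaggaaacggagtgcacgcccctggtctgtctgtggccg
Ccnd3 intron, proximal (chr17:47658568-47658768, plus strand): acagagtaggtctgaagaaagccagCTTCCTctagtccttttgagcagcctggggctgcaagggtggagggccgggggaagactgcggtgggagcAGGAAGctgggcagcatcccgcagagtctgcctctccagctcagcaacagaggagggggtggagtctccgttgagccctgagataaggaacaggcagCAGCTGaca
Ccnd3 intron, distal (chr17:47679105-47679305, plus strand): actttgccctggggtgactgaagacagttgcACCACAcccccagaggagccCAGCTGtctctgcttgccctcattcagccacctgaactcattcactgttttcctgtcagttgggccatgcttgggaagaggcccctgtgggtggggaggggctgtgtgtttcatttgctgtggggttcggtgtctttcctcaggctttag
Cdkn1b promoter (chr6:134870238-134870438, plus strand): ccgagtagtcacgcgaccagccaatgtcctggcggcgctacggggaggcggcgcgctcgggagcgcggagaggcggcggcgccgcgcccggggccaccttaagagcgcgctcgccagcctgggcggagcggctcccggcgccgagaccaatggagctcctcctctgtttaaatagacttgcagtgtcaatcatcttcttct
The Ccnd3 promoter window holds 1 ETS match, the proximal intron window 2 ETS matches and 1 E-box match, and the distal intron window 1 RUNX match and 1 E-box match. The Cdkn1b promoter window holds none of these letters. Ccnd3 windows not shown include chr17:47670687-47670887, in a region ranked 8340, with 1 RUNX match, and chr17:47673052-47673252, with no match.

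Ccnd1 and Ccnd2, which encode the other D cyclins, had high CTCF-bound Rad21 in an intron and no H3K27ac in the gene body of either replicate. At Ccnd1 (chromosome 7, 152115836 to 152125774, minus strand) the intronic region at chr7:152123407-152123715 had Rad21 folds of 53.9 and 45.1 and a CTCF fold of 19.8, and it ranked 911. It lay 2213 bp from the TSS of the coding transcript, and it counts as a promoter region only through a retained-intron transcript whose TSS lies 1672 bp into the gene. A second region, in an exon at chr7:152117692-152118026, had Rad21 folds of 12.8 and 16.5 and a CTCF fold of 6.58. The window held 5 shared Rad21 regions, all CTCF-bound, among 6 and 8 Rad21 peaks, 12 CTCF peaks, and 4 and 2 H3K27ac peaks. The nearest H3K27ac in both replicates was at the promoter of Oraov1, the downstream neighbour.

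At Ccnd2 (chromosome 6, 127075797 to 127101066, minus strand) a single shared Rad21 region was found in 225270 bp. It was at chr6:127097672-127098072, 3194 bp into the gene in an intron, with Rad21 folds of 49.1 and 73.6 and a CTCF fold of 16.1, and it ranked 279 of 30959. Ordered by the worse rank of the replicates, this was the second highest of the regions in all 10 windows. In replicate 1 alone the Ccnd1 intronic region was higher, at 53.9. In replicate 2 alone, a peak of fold 12.0 lay 8795 bp into the gene and one of fold 4.30 lay 708 bp upstream of the TSS. The nearest H3K27ac peaks lay 89165 and 89248 bp upstream, in replicates 2 and 1. Of all genes, 81.1% had at least 1 shared Rad21 region in their window.

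**Figure D2:**
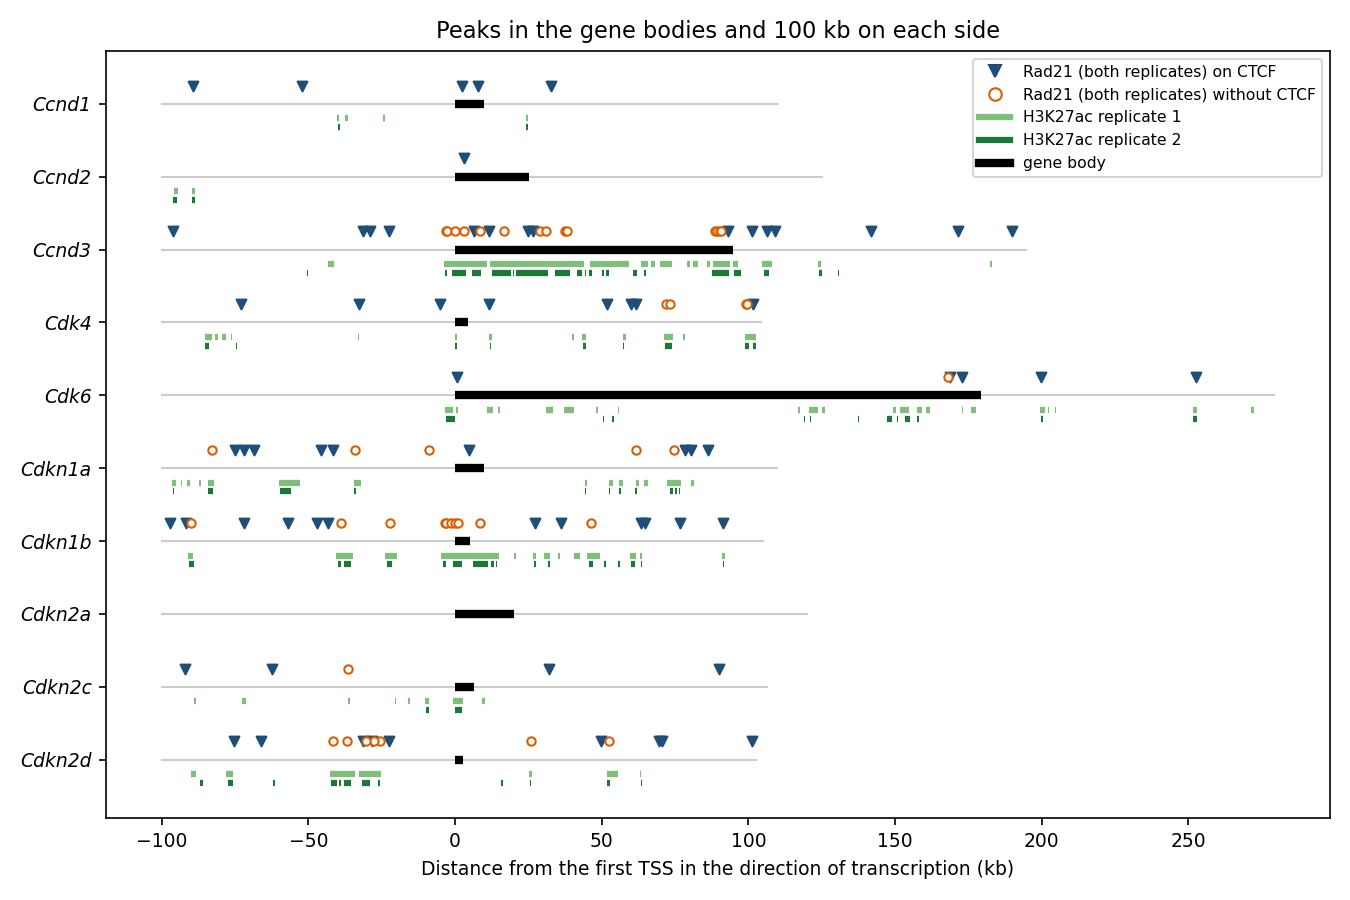
Peaks of the 10 genes by distance from the first TSS in the direction of transcription (kb), with the gene body in black, shared Rad21 regions with CTCF (triangles) and without (open circles), and H3K27ac peaks of replicate 1 (light) and replicate 2 (dark) below. Open circles and H3K27ac fill the body of Ccnd3 and surround Cdkn1b, whereas Ccnd2 has 1 triangle and Cdkn2a has no symbol.

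The kinase genes Cdk4 and Cdk6 both had H3K27ac at the promoter, and Rad21 of both replicates was found there at Cdk6 only. At Cdk4 (chromosome 10, 126500590 to 126504976, plus strand) shared H3K27ac lay over the TSS, with folds of 3.74 and 2.39. Its deposited −log10 q was 5.01 in replicate 1 and 0.815 in replicate 2, a q above 0.05 for the broad peak as a whole. No Rad21 peak was called at the promoter in replicate 1, and one of fold 6.44 was called in replicate 2. The gene lay between a pair of CTCF-bound regions, at chr10:126495295-126495584 upstream, inside the neighbour March9 (Rad21 folds 14.5 and 7.86, CTCF fold 18.6), and at chr10:126512113-126512449 downstream (16.7 and 20.0, CTCF fold 12.4). The span between them was 16841 bp, whereas the median over 22107 genes with such a region on both sides was 157204 bp and 2.14% of them had a shorter span. A span includes the gene, which is 4387 bp long at Cdk4, and was not adjusted for gene length. The downstream region had no CTCF core match. The window held 12 shared Rad21 regions, 8 CTCF-bound and 4 CTCF-free, among 13 and 18 Rad21 peaks, 14 CTCF peaks, and 13 and 10 H3K27ac peaks. None of the 12 lay in Cdk4 itself, and 12 protein-coding genes share the window.

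Cdk6 is the longest of the 10 genes, at 179326 bp (chromosome 5, 3343893 to 3523218, plus strand), and its cohesin sat at its ends. The promoter region at chr5:3344405-3344854 had Rad21 folds of 8.93 and 7.03 and a CTCF fold of 6.05, and shared H3K27ac of 3105 bp ended just upstream of the first TSS. The other 3 regions of the gene body lay between 168138 and 172997 bp from the TSS. The highest of them, at chr5:3516732-3517047, reached 21.7 and 26.8 for Rad21 on a low CTCF peak of fold 4.70. Its neighbour at chr5:3512672-3512989 had folds of 5.42 and 17.9, and the only CTCF-free one, at chr5:3511948-3512114, had folds of 6.00 and 6.31 and no H3K27ac. The H3K27ac lists differed here: 16 peaks over 23576 bp of the gene body in replicate 1 and 9 peaks over 6314 bp in replicate 2, with 3 shared regions. In all the window held 8 and 7 Rad21 peaks, 8 CTCF peaks, and 22 and 12 H3K27ac peaks.

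The Cip/Kip inhibitors Cdkn1a and Cdkn1b differed at their promoters. At Cdkn1a, which encodes p21 (chromosome 17, 29227924 to 29237667, plus strand), a CTCF-bound region at chr17:29232385-29232770 had Rad21 folds of 27.5 and 41.0 and a CTCF fold of 12.3 and ranked 2361. It lay in an intron, 4654 bp from the first TSS and 1861 bp from the second. No H3K27ac peak touched the gene body or any of its 3 promoters in either replicate, and the nearest lay 33297 bp upstream in replicate 1 and 34046 bp upstream in replicate 2. Upstream, near Srsf3, 2 CTCF-bound regions stood within 5 kb of each other, at chr17:29181876-29182248 (Rad21 folds 32.3 and 45.1, CTCF fold 4.34) and chr17:29186053-29186446 (32.9 and 43.8, CTCF fold 10.8). The window held 14 shared Rad21 regions, 9 CTCF-bound and 5 CTCF-free, among 19 and 22 Rad21 peaks, 12 CTCF peaks, and 14 and 11 H3K27ac peaks. All 5 CTCF-free regions lay outside the gene.

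At Cdkn1b, which encodes p27 (chromosome 6, 134870419 to 134875531, plus strand), 3 shared CTCF-free Rad21 regions lay at the promoter and no CTCF peak did. Their folds were 4.23 and 3.48 at chr6:134868860-134869138, 7.36 and 10.5 at chr6:134869952-134870817 over the TSS, and 7.87 and 7.16 at chr6:134870918-134871683. All were low beside the CTCF-bound region at chr6:134897401-134897825, downstream of the gene, which had folds of 29.4 and 46.7. H3K27ac formed a cluster of 37224 bp around the gene, of rank 207 by width among 11823, with 6 CTCF-free regions and 1 CTCF-bound region. The window held 22 shared Rad21 regions, 12 CTCF-bound and 10 CTCF-free, among 27 and 32 Rad21 peaks, 13 CTCF peaks, and 13 and 17 H3K27ac peaks, and all 10 CTCF-free regions lay in H3K27ac. As many or more shared Rad21 regions were found around 1.74% of all genes, and as many or more CTCF-free ones around 3.08%. Per Mb of window, 98.2% of genes had fewer CTCF-free regions than Cdkn1b. The window holds 5 protein-coding genes, which is the median of the members and of all genes.

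The INK4 genes had no shared Rad21 at their promoters and differed in H3K27ac. Cdkn2a, which encodes p16Ink4a and p19Arf (chromosome 4, 88920377 to 88940557, minus strand), had no shared Rad21 and no H3K27ac peak of either replicate in 220181 bp. Of all genes, 18.9% had no shared Rad21 region in their window and 24.3% no shared H3K27ac region. The share with no H3K27ac peak of either replicate, as at Cdkn2a, is not given and can be at most 24.3%. Its CTCF peak at chr4:88940616-88940831, at the upstream promoter, was low, with a fold of 3.58, a −log10 q of 1.15 and no core match. The downstream promoter, 12461 bp further in, had no peak of any list. The other CTCF peak of the window, in the intron of the neighbour Cdkn2b, had a fold of 7.45 and a Rad21 peak of fold 4.80 in replicate 1 alone.

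Cdkn2c, which encodes p18Ink4c (chromosome 4, 109333481 to 109339794, minus strand), had shared H3K27ac over both of its TSSs, with folds of 2.91 and 2.14. The deposited −log10 q was 4.32 in replicate 1 and 0.759 in replicate 2, a q above 0.05 for the broad peak as a whole. Rad21 was called there in replicate 2 alone, at fold 4.23. Together with the promoter of its neighbour Faf1 the H3K27ac formed a cluster of 12845 bp. The window held 5 shared Rad21 regions among 5 and 7 Rad21 peaks, 6 CTCF peaks, and 8 and 2 H3K27ac peaks, and none of the 5 lay in the gene. The only CTCF-free region, at chr4:109376174-109376470 in an intron of Faf1, differed between replicates, with folds of 5.42 and 24.1. It overlapped an H3K27ac peak of replicate 1 (fold 6.65) and none of replicate 2.

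Cdkn2d, which encodes p19Ink4d (chromosome 9, 21092907 to 21095653, minus strand), had no peak of any list at its promoter, although 16 shared Rad21 regions lay in its window. As many or more were found around 7.07% of all genes. There were 20 and 26 Rad21 peaks, 13 CTCF peaks, and 8 and 13 H3K27ac peaks in the window, and the shared regions comprised 9 CTCF-bound and 7 CTCF-free ones. The nearest on either side were a CTCF-free region at chr9:21069512-21069998, at the promoter of Atg4d (Rad21 folds 8.77 and 7.53), and a CTCF-bound region at chr9:21117747-21118306, at the promoter of Ap1m2 (33.8 and 39.9, CTCF fold 20.1). Both lay over 20 kb from Cdkn2d, and 9 protein-coding genes share the window.

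Summed over the 10 windows, which cover 2.358 Mb, shared Rad21 regions stood at 46.7 per Mb, and over all chromosomes at 11.7 per Mb. CTCF-free regions stood at 17.8 and 4.0 per Mb. The windows are centred on genes, so the count per gene is the closer comparison: the median was 9 shared Rad21 regions for the members (0 to 29) and 5 for all genes. The median of CTCF-free regions was 2.5 for the members and 1 for all genes, and that of shared H3K27ac regions 6 and 3. The 10 members ranged over nearly the whole order of genes, with Ccnd3 above 99.7% of genes and Cdkn2a at 0. The plot of regions by class shows that Ccnd3, Cdkn1b and Cdkn2d hold most of the CTCF-free regions.

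**Figure D3:**
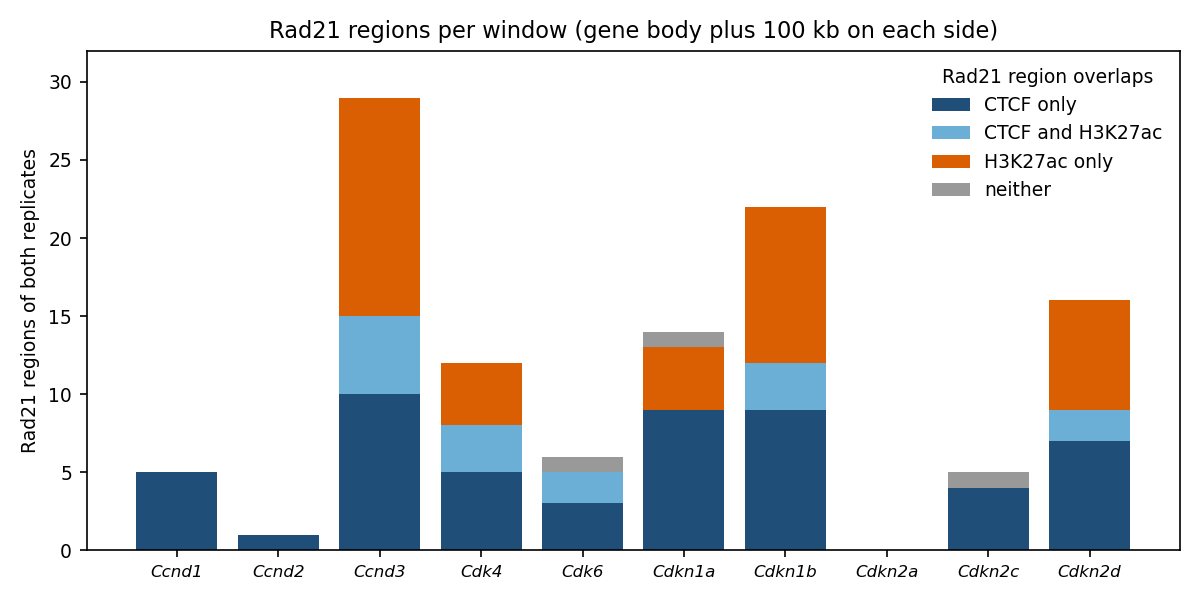
Number of shared Rad21 regions in each window (bars from 0), divided by overlap with a CTCF peak, with shared H3K27ac, with both or with neither. Ccnd3 has 29 regions, Cdkn1b 22 and Cdkn2d 16, and Cdkn2a has none.

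The 42 CTCF-free regions of the windows lay in shared H3K27ac more often than the 68 CTCF-bound ones, as over all chromosomes. The shares were 39 of 42 (92.9%, exact binomial 95% interval 80.5 to 98.5) and 15 of 68 (22.1%, 12.9 to 33.8), and over all chromosomes 72.0% and 18.7%. The intervals cover counting error only, and regions of a window are neighbours and not independent. The 3 CTCF-free regions without shared H3K27ac were those of Cdk6 and Cdkn2c given above and one 8887 bp upstream of Cdkn1a (Rad21 folds 7.06 and 5.38). A CTCF peak was present at 68 of 110 shared Rad21 regions (61.8%, 52.1 to 70.9), against 65.9% of all regions. The difference between the classes was 70.8 percentage points in the windows and 53.3 over all chromosomes. In the windows it was 38.7 points when Rad21 and CTCF peaks below a −log10 q of 5 were dropped. It was 17.5 points when H3K27ac peaks below it were dropped too, and no member then kept H3K27ac at the promoter in both replicates. That step cannot test how strong the mark was, because a broad peak has 1 q for its whole width. Over the first Ccnd3 TSS, the 14402 bp peak of replicate 1 (1.45) was dropped. The 4668 bp peak of replicate 2 (5.69) was kept, as was a 32244 bp peak of replicate 1 in an intron (6.25).

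CTCF-free regions were lower than CTCF-bound ones in both replicates. Their median Rad21 folds were 5.65 and 7.57, against 14.0 and 14.9 at CTCF-bound regions, and over all chromosomes 6.07 and 7.35, against 12.8 and 15.0. The CTCF-free region of highest fold in replicate 1 and in replicate 2 was the same, the distal Ccnd3 intron region printed above. Across the 110 regions, which share both libraries, the Spearman rho between the folds in replicates 1 and 2 was 0.802, and across all 30959 regions it was 0.773.

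**Figure D4:**
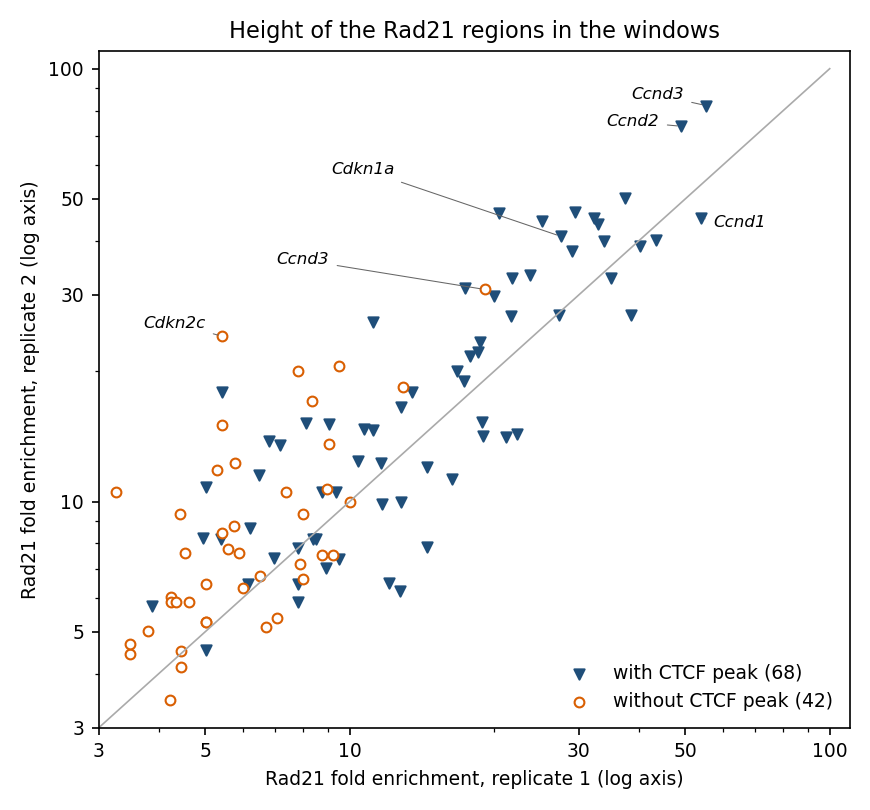
Rad21 fold enrichment of the 110 shared regions in replicate 1 and replicate 2, both on log axes, with CTCF (triangles) and without (open circles); the line marks equal folds and gene names mark regions described in the text. The 4 intronic CTCF-bound regions of Ccnd3, Ccnd2, Ccnd1 and Cdkn1a are among the highest, and the Cdkn2c region of folds 5.42 and 24.1 lies farthest from the line of the named ones.

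H3K27ac over the gene bodies was present in both replicates or in neither, but its extent differed. Replicate 1 covered 77.7% of Ccnd3 and replicate 2 44.2%. At Cdkn1b replicate 1 covered the whole gene and replicate 2 46.5%, and at Cdk6 the shares were 13.1% and 3.52%. At Cdk4 they were close, at 14.9% and 16.1%, as they were at Cdkn2c, at 42.0% and 36.3%. The bodies of Ccnd1, Ccnd2, Cdkn1a, Cdkn2a and Cdkn2d held no H3K27ac peak in either replicate. No share of all genes is given for gene bodies, so whether this is usual was not tested.

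**Figure D5:**
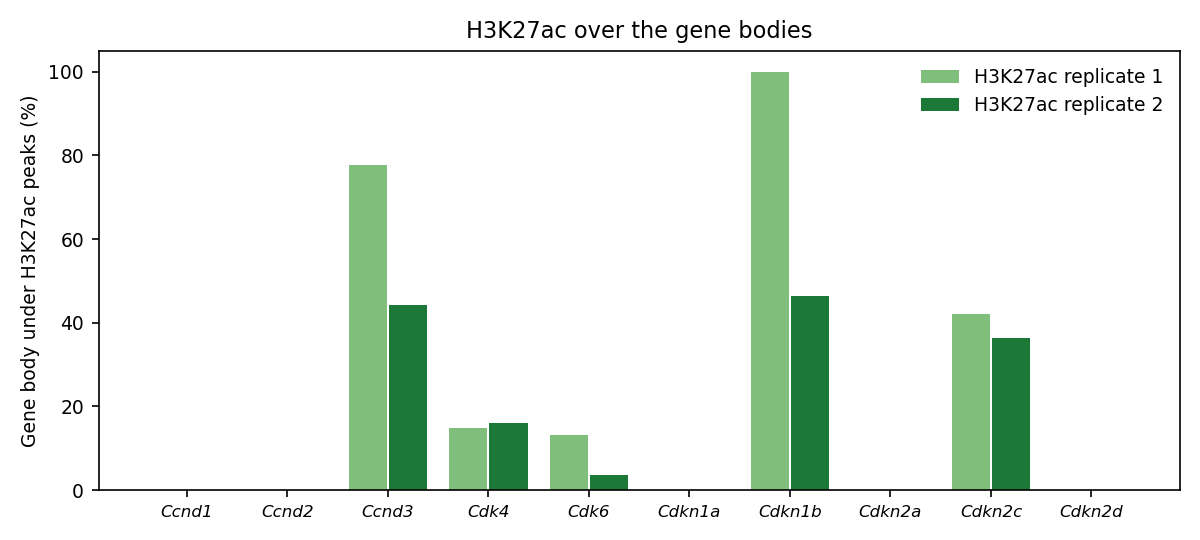
Percent of each gene body under H3K27ac peaks, replicate 1 in light and replicate 2 in dark bars, which start at 0. Cdkn1b and Ccnd3 are covered most in both replicates, at 46.5% and 44.2% in replicate 2, and 5 genes have no bar.

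A CTCF core match lay within 50 bp of the Rad21 summit at 55 of 68 CTCF-bound regions of the windows (80.9%), against 84.3% of all CTCF-bound regions, and at 1 of 68 windows placed 1000 bp downstream (1.47%), against 4.99%. It lay at 4 of 42 CTCF-free regions (9.52%), against 21.1% of all CTCF-free regions. Within 100 bp of the summits of the 42 CTCF-free regions, the RUNX letters TGTGGT were found at 12 (28.6%, and 20.8% of all 10559 CTCF-free regions), the E-box CAGCTG at 13 (31.0% and 19.6%), the ETS letters AGGAAG at 19 (45.2% and 34.9%) and the TCF/LEF letters CTTTGA at 1 (2.38% and 13.2%). Both strands were searched. No interval is given for these shares. Of the 42 regions, 14 were in the Ccnd3 window and 10 in the Cdkn1b window, so the shares largely describe those windows. These families of factors are known regulators of thymocytes, and a match of letters is not a bound site.

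The nearest CTCF-bound region on each side of a gene had a core match on both sides for 5 of the 10 members, against 74.3% of 22107 genes. For 1 of them, Cdkn2a, the matches faced each other, plus strand on the left and minus strand on the right, as they did for 26.0% of the 16431 genes with a match on both sides. The pairs around Cdkn2a, which enclose the longest span of the members, and around Cdkn1b are shown, with the core in capitals and each read on the strand of its match.
Cdkn2a left flank (chr4:88792421-88792443, plus strand): atgtaCCACAAGGTGGCAtcagt
Cdkn2a right flank (chr4:89191569-89191591, minus strand): aaccgCCACTAGGTGTCCtcaac
Cdkn1b left flank (chr6:134826980-134827002, minus strand): ttttaGCACTAGAGGGCGatcca
Cdkn1b right flank (chr6:134897590-134897612, minus strand): tttggCCAGCAGAGGGCTctctt
The Cdkn2a pair lay 127925 bp downstream, in an intron of Mtap (Rad21 folds 9.37 and 11.3, CTCF fold 11.3), and 251010 bp upstream of the gene (10.3 and 13.1, CTCF fold 6.77), and enclosed 399116 bp. The Cdkn1b pair, with both matches on the minus strand, enclosed 70631 bp. Both matches of Ccnd3 and Cdkn2c also lay on the minus strand, and both of Cdk6 on the plus strand.

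Of 26 other genes of the G1 and S phases, 23 had shared H3K27ac at the promoter, against 41.5% of all genes. The 3 without it were E2f7, a repressive E2F factor, Cdkn1c, which encodes p57, and Cdkn2b, the INK4 neighbour of Cdkn2a. Shared Rad21 was found at 11 of the 26 (31.5% of all genes) and CTCF at 12 (26.4%). CTCF-free Rad21 was found at 6, against 17.0% of all genes: Ccne2, a cyclin that activates Cdk2 (Rad21 folds 5.02 and 5.73), Mnat1 of the Cdk-activating kinase (7.39 and 6.49), the retinoblastoma gene Rb1 (12.8 and 16.9), its relative Rbl2 (4.46 and 8.84), and Skp2 (5.17 and 6.10) and Fbxw7 (13.7 and 13.5), which choose targets for ubiquitin ligases. These folds are the highest Rad21 values at each promoter, and the promoters of Ccne2 and Rb1 also had a CTCF peak, of folds 3.49 and 2.62. The cyclin E gene Ccne1 and the kinase Cdk2 had H3K27ac and no shared Rad21.

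Genes most like a member were found by the distance between log2(1 + number of peaks) over the 5 lists, in windows of the same kind. Nearest to Ccnd3 were Gse1 (distance 0.35), Zfr2 (0.38) and Sbno2 (0.38), where the median distance to all genes was 4.90. Nearest to Cdkn1b were Nop2 (0.13), Iffo1 (0.14) and Efna2 (0.15), with a median of 3.95. Nearest to Cdkn2d were Tll2 (0.11), Prr7 (0.22) and Zmynd8 (0.23), with a median of 3.28. The likeness is one of peak numbers only.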

How the data were processed

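The 5 peak lists were deposited as the authors' caller wrote them, 1 per library, as narrow peaks (CTCF, Rad21) or broad peaks (H3K27ac), on mm9 per the submitters' processing notes. Those notes name CASAVA 1.82 and 1.84, Bowtie 1.0.0, Bowtie2 2.3.2, MACS2 2.1.0, HiC-Pro 2.7.8 and Juicer 0.7.5 without their roles. How peaks were thresholded, and against which control, is not given in the sources used here. A deposited peak has a fold enrichment, a ratio over local background, and −log10 p and −log10 q values from the authors' caller. For a broad peak each is 1 value for the whole peak, so a q above 0.05 does not show that the peak failed the caller's threshold. The deposited score column, which scales with −log10 q except in the CTCF list, where it scales with −log10 p, was not used. The smallest deposited −log10 q was 1.31 and 1.32 for Rad21, 0.188 and 0.00455 for H3K27ac and 0 for CTCF. Depth is unknown.

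Chromosomes 1 to 19 and X were analysed. Overlapping peaks of a target's replicates were joined, a joined region was shared if both replicates had a peak in it, and an overlap needed 1 bp. Gene models were GENCODE vM1 on NCBIM37, whose chromosome ends no peak passed. Distances run from the first TSS to the middle of a shared region or H3K27ac peak, and to the summit of a single CTCF or Rad21 peak. Regions given with coordinates are the best ranked of each gene, or else the nearest, and the flanking CTCF-bound ones; further regions were named after their values were seen. The members were named as a gene family with no measured threshold, but they, the lists of 26 pathway genes and of markers, and the settings were chosen with earlier results of these data known. The full results of 2 marker lists, of B and erythroid cells, are not reported here. There was 1 condition, so values are descriptions without p-values. Alternatives were promoters of 500 bp, a −log10 q of at least 5, 50% overlap, windows of 50 and 200 kb, stitching within 3000 bp, 1 or 3 mismatches and each replicate left out. Python 3.11.15 with numpy 2.4.6, pandas 2.3.3, scipy 1.17.1 and pysam 0.24.0 was used, and the overlap and motif searches were tested on simulated data.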

Additional observations from a re-analysis of the deposited data

How the results depend on the processing

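Of 54 recomputed values over 11 results, 25 stayed within the limits set for them and 29 moved. The limits differed in width. A cluster sum of 113076 bp with stitching within 3000 bp, in place of 166200, counted as unmoved. A difference in H3K27ac between CTCF-free and CTCF-bound regions of 72.3 points in place of 70.8 counted as moved. Only this difference could change sign, and it stayed positive. The other results are counts, shares or widths. With 500 bp promoters, CTCF was found at 6 pathway genes in place of 12. When Rad21 and CTCF peaks below a −log10 q of 5 were dropped, Rad21 was found at 7 and CTCF at 6 pathway genes, 54% of shared Rad21 regions lay on CTCF, the difference in H3K27ac between CTCF-free and CTCF-bound regions was 38.7 percentage points in place of 70.8, and 87.2% of CTCF-bound regions had a core match. With H3K27ac peaks below it dropped too, H3K27ac was left at 0 member and 3 pathway promoters and the difference was 17.5 points. The H3K27ac clusters at members then summed to 32244 bp in place of 166200. As a broad peak has 1 q for its whole width, these values do not measure how strong the mark was. With 50% overlap the difference was 72.3 points. Windows of 50 kb gave 70 regions, 51.4% on CTCF and 60.6 points, and windows of 200 kb gave 172 regions and 67.4% on CTCF. Core matches fell to 52.9% with at most 1 mismatch and rose to 95.6% with 3. Apart from the windows and mismatches, which change what is counted, the cause was not tested.

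Leaving out either replicate of Rad21 or H3K27ac gave Rad21 at 5 to 8 members and 15 to 19 pathway genes, 139 to 169 regions, 46.2% to 51.8% on CTCF, a difference of 64.1 to 68.8 points, core matches at 80.6% to 82.1%, and cluster sums of 160690 to 304643 bp. Without Rad21 replicate 1, the promoters of Ccnd2, Cdk4 and Cdkn2c also counted. In an alternative chosen after seeing the data, TSSs of protein-coding transcripts alone, Ccnd1 lost Rad21 and CTCF, which left 4 and 3 members. No paired analysis was possible because the lists hold 1 condition and no groups were compared.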

Other observations

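Of the 110 shared Rad21 regions, 28 lay in the body or promoter of the member itself (16 CTCF-free and 12 CTCF-bound), 23 at the promoter of another gene (8 and 15) and 59 elsewhere (18 and 41). Of the 28, 17 belonged to Ccnd3, and Cdk4, Cdkn2a, Cdkn2c and Cdkn2d had none of their own. No share of all genes or regions is given for these places, so the counts only describe the members. Their lengths ran from 2747 bp (Cdkn2d) to 179326 bp (Cdk6).

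Of the 106 CTCF peaks in the windows, 70 (66.0%) lay on a shared Rad21 region, against 58.2% of all CTCF peaks. A core match was found at 86 (81.1%), against 72.4%. There were 20 with q above 0.05 (18.9%), as at Cdkn2a, against 29.1% of all CTCF peaks, and 3 of the 20 lay on Rad21 (15.0%), against 19.6%. The highest CTCF fold in the windows at a shared Rad21 region, 56.2, was at the promoter of Ddx47 near Cdkn1b, where Rad21 had folds of 21.8 and 32.8.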
